A study of Mus musculus with 6 samples.

Results

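Fibronectin and the matricellular proteins form a group of 10 genes that were followed through the RNA of primary mouse lung fibroblasts (LFs). They were taken by gene symbol, as fibronectin (Fn1), the thrombospondins Thbs1 and Thbs2, tenascin C (Tnc), periostin (Postn), SPARC (Sparc), osteopontin (Spp1), spondin 2 (Spon2) and the CCN proteins Ccn1 and Ccn2. Each symbol matched 1 of the 55364 genes listed, and all 10 were among the 10346 genes tested. The LFs came from littermate wt mice and mice carrying a targeted allele of Tks5 (gene symbol Sh3pxd2a), all young adults of the C57Bl6/J strain, and were used at low passage. Tks5 is a scaffold protein of podosomes, the actin-rich structures with which cells attach to and degrade extracellular matrix (ECM). The sample labels call the second genotype TKS5 knockout, while the paper describes these LFs as heterozygous (Tks5+/-). The allele, targeted in embryonic stem cells that were injected into C57Bl/6 N blastocysts, had lost an internal exon to a Cre recombinase that the CMV promoter drives in all tissues, and whether the version with or without a reporter cassette was used for these LFs is not given in the sources used here. All 6 cultures, 3 of each genotype, received 10 ng/ml TGFβ1 for 24 h in serum-free medium, so that no library shows the genes without TGFβ. In Quant-Seq, the method used, cDNA synthesis starts at the poly(A) tail, so that mainly transcript ends are read. The question asked of these data was how the RNA of LFs exposed to TGFβ differs between the genotypes.

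Matricellular proteins are secreted into the ECM but are not its main building material. They bind collagens, growth factors, proteases and receptors of the cell surface, and so modulate how cells adhere, move and respond to signals. Fibronectin is a structural glycoprotein that cells assemble into fibrils through integrins and on which other matrix proteins are laid down. In fibroblasts, TGFβ is known to induce fibronectin, CCN2, thrombospondin 1, tenascin C and periostin, and these proteins accumulate in fibrotic lung.

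The libraries held between 1344507 and 2369882 counts. The counts of Sh3pxd2a, between 190 and 284 per library, did not differ by the test (log2 fold change 0.29, standard error 0.20, edgeR adjusted p = 0.249). The exon that the allele lacks is an internal one, while the counts come mainly from the end of the transcript. Whether the allele changes the counts at that end was not tested, and the groups are named here by their labels. Markers of fibroblasts were present, all 8 in every library, at a summed level of 3740 to 5070 CPM (counts scaled to a common library size) in wt libraries and 5538 to 8605 CPM in the libraries labelled TKS5 KO. Of them 4 were called higher and 0 lower, Thy1 (log2 fold change 1.93), Vim (1.27), Pdgfra (0.69) and Col3a1 (0.64). Pdgfra and Col3a1 kept the call in only 3 and 2 of the 6 fits that left out 1 library. Col1a1 (0.45), Col1a2 (0.39), Dcn (-0.31) and Lum (-0.85) were not called. Summed markers of other cells moved with the groups, except the epithelial sum, where the groups overlapped, and single markers did not all follow their sum. The 15 macrophage markers summed to 332, 299 and 1869 CPM in wt replicates 1, 2 and 3 and to 134 to 149 CPM in the libraries labelled TKS5 KO, where Adgre1, Ptprc and Marco had no count, and 4 of the 10 tested were called lower. The 7 endothelial markers went from 83.5 to 114 CPM in wt libraries to 19.3 to 26.6 CPM, and the 7 mesothelial markers from 30.5 to 36.3 CPM to 4.09 to 12.1 CPM, and all 3 endothelial and 2 mesothelial markers that could be tested were called lower. The 7 epithelial markers summed to 14.4 to 39.7 CPM in wt libraries and 29.2 to 60.3 CPM in the others, with Sftpc, Sftpb and Scgb1a1 at 0 throughout. Within them Ager, the one tested, was called higher (1.82, edgeR adjusted p = 4.53e-05) and made up the whole sum in the libraries labelled TKS5 KO, while Cdh1 had 17, 8 and 58 counts in wt libraries and 0 in the others. The 7 smooth muscle and pericyte markers summed to 472 to 548 and 554 to 652 CPM, but all 6 tested were called, Cnn1 higher (248 ± 26.4 to 496 ± 77.0 CPM, SD, n = 3 each) and Myh11, Des, Pdgfrb, Notch3 and Cspg4 lower, by log2 fold changes from -3.55 to -0.996. Beside these marker calls, 22.1% of all genes tested were called lower and 22.8% higher, by the rule given below. Of 2 genes that differ with sex or substrain of the mice, the Y-linked Ddx3y was at 85.6 ± 8.07 CPM (SD, n = 3) in wt libraries and 11.9 ± 1.62 CPM (SD, n = 3) in those labelled TKS5 KO, and Nnt at 39.2 ± 8.70 and 13.3 ± 5.57 CPM (SD, n = 3 each), while Xist had no count in any library and Eif2s3y was not called (log2 fold change -0.23). The differences of Ddx3y, Nnt and the called markers move with the groups, and their part in the results was not tested. In RNA of whole cultures, fewer cells of a type and less RNA per cell cannot be told apart.

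Fibronectin, SPARC, thrombospondin 2 and CCN2 were lower in the libraries labelled TKS5 KO than in wt libraries, and spondin 2 was higher. The other 5 genes, Thbs1, Tnc, Postn, Spp1 and Ccn1, did not pass the test. A gene was called where its p from edgeR's quasi-likelihood F test, adjusted by the Benjamini-Hochberg method over all genes tested, lay under 0.05 with a fold change of 1.2 or more. By this rule 5 of the 10 genes were called, beside 44.9% of all genes tested, so that the share called was close to that of all genes. The 4 lower genes stand beside 22.1% of all genes called lower and the 1 higher gene beside 22.8% called higher. The values of the genotypes did not overlap for 5 of the 10 genes, against 53.8% of all genes. The median log2 fold change of the 10 genes was -0.27, and that of all genes tested -0.046. With library totals in place of edgeR's TMM factors as the scaling, the median of all genes moved to -0.47, and 1362 genes were called higher and 3944 lower, against 2356 and 2286. Together the 10 genes took 1.11% to 1.44% of the counts of wt libraries and 0.501% to 0.806% of the counts of those labelled TKS5 KO. These are shares of library totals, without TMM factors. Ccn2 and Sparc held most of the counts in every library, with 8625 and 6253 of 19163 in wt replicate 1, so the share mainly follows these genes.

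**Figure D1:**
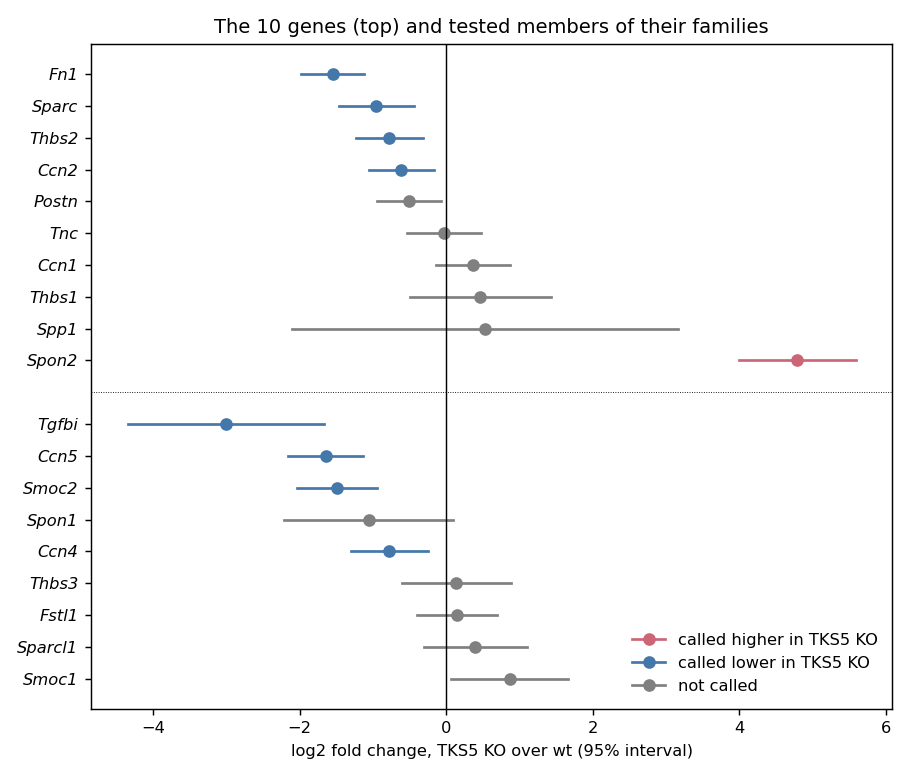
Log2 fold change of each gene in the libraries labelled TKS5 KO over wt libraries (x axis), with its 95% interval from the fit; the 10 genes are above the dotted line and the 9 tested members of their families below it. Fn1, Sparc, Thbs2 and Ccn2, all called, and Postn, not called, lie to the left of 0 with their whole intervals. Spon2 lies far to the right at 4.79, and the interval of Spp1 is the widest of the 10.

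Fn1 (ENSMUSG00000026193), on the reverse strand of chromosome 1 of GRCm38 from 71585520 to 71653200, encodes fibronectin. Its level was 1126, 1256 and 1271 CPM in wt replicates 1, 2 and 3 and 493, 367 and 391 CPM in replicates 1, 2 and 3 labelled TKS5 KO. Every wt library was thus more than double any library of the other group, and the spread within each group was small beside the gap. The level fell from 1218 ± 80.2 CPM to 417 ± 66.8 CPM (SD, n = 3 each), a log2 fold change of -1.55 (standard error 0.21, 95% interval -1.98 to -1.12, edgeR adjusted p = 3.56e-06), which is 2.92-fold lower. Fn1 was called lower under each of 18 alternative ways of processing, 6 of which left out 1 library each and gave -1.63 to -1.43. The size was less certain than the direction. Across the 10339 tested genes with a known length, log2 fold changes fell with transcript length (Spearman's rho = -0.397, a correlation over genes and not over independent replicates), and the longest transcript of Fn1 has 8315 bases. Corrected for each library's trend with length and GC content, the change of Fn1 was -0.85, and on the authors' normalized counts it was -2.42.

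Thrombospondins 1 and 2 are related trimeric glycoproteins that bind CD47, CD36 and integrins, and thrombospondin 1 can release TGFβ from its latent complex. Thbs1 (ENSMUSG00000040152), on the forward strand of chromosome 2 from 118111876 to 118127133, was at 660, 445 and 226 CPM in wt replicates 1, 2 and 3 and at 914, 499 and 418 CPM in the replicates labelled TKS5 KO. Both groups were spread over more than a doubling and they overlapped. With means of 443.5 ± 217 and 610.3 ± 266 CPM (SD, n = 3 each), the log2 fold change of Thbs1 was 0.46 (standard error 0.42, 95% interval -0.50 to 1.42, edgeR adjusted p = 0.402). Thbs2 (ENSMUSG00000023885), on the reverse strand of chromosome 17 from 14665500 to 14694235, was at 322, 327 and 248 CPM in wt libraries and at 189, 209 and 126 CPM in those labelled TKS5 KO. The groups of Thbs2 did not overlap, and replicate 3 was the lowest of each. Thbs2 fell from 299 ± 44.1 to 175 ± 43.2 CPM (SD, n = 3 each), a log2 fold change of -0.77 (standard error 0.22, 95% interval -1.23 to -0.32, edgeR adjusted p = 0.00631). The change was -1.20 with library totals as the scaling and -1.34 on the authors' normalized counts. It was not called without TKS5 KO replicate 3 (-0.55, edgeR adjusted p = 0.0739) or after correction for transcript length (-0.36, adjusted p = 0.194) or for length and GC content (-0.50, adjusted p = 0.0608).

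Tenascin C and periostin are secreted at sites of tissue remodelling, tenascin C as a six-armed protein that loosens cell adhesion and periostin as a collagen-binding partner of integrins. Tnc (ENSMUSG00000028364), on the reverse strand of chromosome 4 from 63959785 to 64047015, was at 116.5, 94.7 and 176 CPM in wt libraries and 162, 125 and 94.2 CPM in those labelled TKS5 KO. The groups covered nearly the same range. The means were 129 ± 41.9 and 127 ± 33.9 CPM (SD, n = 3 each). Its log2 fold change was -0.031 (standard error 0.24, 95% interval -0.53 to 0.47, edgeR adjusted p = 0.930), and its sign turned under 7 of the 18 alternatives, of which the correction for length and GC content gave 0.52. Postn (ENSMUSG00000027750), on the forward strand of chromosome 3 from 54361109 to 54391037, was at 109, 96.3 and 93.8 CPM in wt libraries and 83.4, 69.0 and 57.8 CPM in those labelled TKS5 KO. Every library labelled TKS5 KO lay below every wt library. The mean was 99.6 ± 8.01 CPM in wt libraries and 70.1 ± 12.8 CPM in the others (SD, n = 3 each), and the log2 fold change of -0.51 (standard error 0.21, 95% interval -0.94 to -0.067) did not pass the threshold (edgeR adjusted p = 0.0562). Postn was called lower under 7 of the 18 alternatives and stayed below 0 in all of them, from -0.92 with library totals as the scaling to -0.16 with the length correction.

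**Figure D2:**
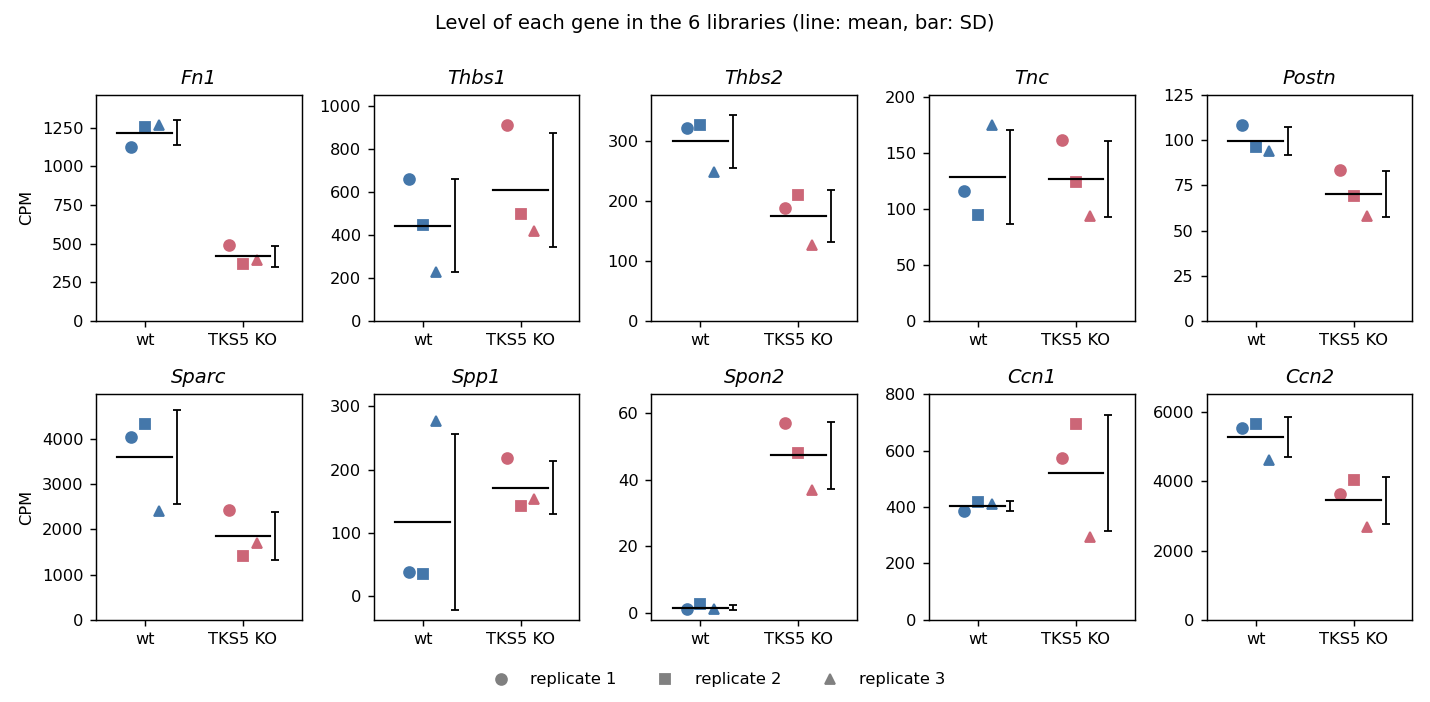
Level of each of the 10 genes in CPM (y axes, linear, each with its own range) in the 3 wt libraries and the 3 labelled TKS5 KO; symbols mark the replicate number, lines the mean and bars the SD. The 2 groups are apart for Fn1, Thbs2, Postn, Spon2 and Ccn2, and wt replicate 3 of Spp1 stands at 277 CPM above the other wt libraries.

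SPARC and osteopontin are calcium-binding glycoproteins, SPARC a collagen-binding protein needed for the assembly of fibrillar collagen and osteopontin a ligand of integrins and CD44 that macrophages also make. Sparc (ENSMUSG00000018593), on the reverse strand of chromosome 11 from 55394500 to 55423183, was at 4025, 4330 and 2400 CPM in wt libraries and 2432, 1417 and 1705 CPM in those labelled TKS5 KO. Wt replicate 3 was as low as TKS5 KO replicate 1, so that the groups met at their edges. Sparc fell from 3585 ± 1038 to 1851 ± 523 CPM (SD, n = 3 each), a log2 fold change of -0.95 (standard error 0.25, 95% interval -1.46 to -0.44, edgeR adjusted p = 0.00332). It was called lower under all 18 alternatives, between -1.43 and -0.77.

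Spp1 (ENSMUSG00000029304), on the forward strand of chromosome 5 from 104435118 to 104441050, was at 38.6 and 34.2 CPM in wt replicates 1 and 2, at 277 CPM in wt replicate 3, and at 219, 142 and 154 CPM in the libraries labelled TKS5 KO. Wt replicate 3 was thus the highest library and the other wt replicates the lowest. With all libraries the means were 117 ± 139 and 171 ± 41.6 CPM (SD, n = 3 each) and the log2 fold change was 0.52 (standard error 0.97, 95% interval -2.11 to 3.16, edgeR adjusted p = 0.705). Without wt replicate 3, a library that stands apart by its macrophage markers, Spp1 was called higher in the libraries labelled TKS5 KO, with 2.23 (edgeR adjusted p = 1.37e-07), and without any other single library it was not called (0.093 to 0.68). In wt replicate 3 Spp1 was 7.18 times and the summed macrophage markers 5.63 times the higher of the other 2 wt libraries. In the libraries labelled TKS5 KO, Spp1 was higher than in wt replicates 1 and 2 while the summed macrophage markers were lower. Lyz2 made up most of this sum in every library, with 1298 CPM in wt replicate 3. C1qc went the other way, at 1.93 and 1.61 CPM in wt replicates 1 and 2 and 5.49, 6.44 and 3.58 CPM in the libraries labelled TKS5 KO. Cd14, C1qa, Mrc1 and Itgam overlapped in this comparison. The part of macrophage RNA in the counts of Spp1 was not tested.

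**Figure D3:**
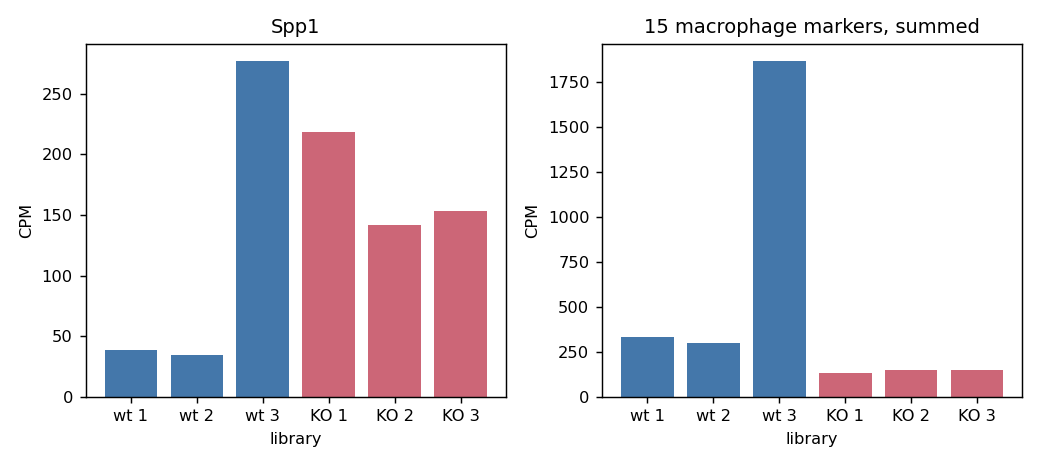
Level in CPM (y axes, linear from 0) of Spp1 (left) and of the 15 macrophage markers summed (right) in each library, wt in blue and TKS5 KO in red. Both are highest in wt replicate 3, at 277 and 1869 CPM. The libraries labelled TKS5 KO hold more Spp1 and a lower marker sum than wt replicates 1 and 2, and most of the sum is Lyz2.

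Spondin 2, also called mindin, is a secreted protein that binds integrins of leukocytes and bacterial surfaces. Spon2 (ENSMUSG00000037379), on the reverse strand of chromosome 5 from 33198184 to 33218455, was read 2, 5 and 3 times in the wt libraries and 104, 82 and 72 times in the libraries labelled TKS5 KO. It was close to the limit of detection in every wt library, since a count of 0 allows up to 3 counts, and was read in every library of the other group. Its level rose from 1.69 ± 0.856 to 47.3 ± 10.1 CPM (SD, n = 3 each), a log2 fold change of 4.79 (standard error 0.39, 95% interval 3.99 to 5.59, edgeR adjusted p = 6.54e-09). From the summed counts, 10 against 258, the ratio of the scaled levels was 28.8 (exact 95% interval 15.4 to 60.7, for counting error only, since reads without molecular identifiers are not independent molecules). Spon2 was called higher under each of the 17 alternatives that tested it (4.39 to 5.25). Its relative spondin 1 (Spon1) went the other way in values, at 6.36 ± 1.82 CPM in wt libraries and 3.00 ± 2.16 CPM in the others (SD, n = 3 each), and was not called (log2 fold change -1.06, edgeR adjusted p = 0.127).

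CCN proteins are short-lived secreted proteins whose genes respond fast to TGFβ, serum and mechanical tension, the last through the coactivators YAP and TAZ and the TEAD factors. Ccn1 (ENSMUSG00000028195), on the reverse strand of chromosome 3 from 145646976 to 145649981, was at 386, 418 and 410 CPM in wt libraries and at 574, 696 and 294 CPM in those labelled TKS5 KO. The wt libraries lay close together, and those labelled TKS5 KO lay on both sides of them, with replicate 3 the lowest of all. The means of Ccn1 were 404 ± 16.8 and 521 ± 206 CPM (SD, n = 3 each) and its log2 fold change was 0.37 (standard error 0.25, 95% interval -0.14 to 0.87, edgeR adjusted p = 0.235). Ccn1 was called higher only without TKS5 KO replicate 3 (0.69, edgeR adjusted p = 0.0215), and was below 0 with library totals as the scaling (-0.055) and on the authors' normalized counts (-0.16). Ccn2 (ENSMUSG00000019997), the connective tissue growth factor gene, lies on the forward strand of chromosome 10 from 24595442 to 24598683. It was at 5551, 5671 and 4615 CPM in wt libraries and at 3628, 4038 and 2697 CPM in those labelled TKS5 KO, with replicate 3 the lowest of each group and no overlap. Ccn2 fell from 5279 ± 578 to 3454 ± 687 CPM (SD, n = 3 each), a log2 fold change of -0.61 (standard error 0.22, 95% interval -1.06 to -0.17, edgeR adjusted p = 0.0244). Ccn2 was called lower under all 12 alternatives that kept every library (-1.29 to -0.58), but not without wt replicate 1 (-0.58), wt replicate 2 (-0.56) or TKS5 KO replicate 3 (-0.42), with edgeR adjusted p values of 0.0699, 0.108 and 0.183.

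The promoter of Ccn1 is shown because it holds a word that TEAD factors are known to bind, and those of Sparc and Thbs2 because they hold a short word that SMAD factors of TGFβ signalling are known to bind, and belong to genes that were called lower. Promoter sequences (RefSeq, build GRCm38.p6, 250 bases before to 50 after a transcript start, with more than 1 start for some genes) were matched for 6 of the 10 genes, Ccn1, Tnc, Spp1, Sparc, Thbs2 and Postn, and the unmatched genes were Fn1, Thbs1, Spon2 and Ccn2. The words were searched on both strands, and no match in the 9 promoters of these genes overlapped that of another word. GGAATG (TEAD) was found in 14.7% of all 32851 promoters and in 1 of the 9 promoters of the matched genes. CAGACA (SMAD) was found in 21.0% of all promoters and in 5 of the 9, which belong to Tnc, Spp1, Sparc and Thbs2. The promoters of Tnc overlap and share the match at chr4:64046990-64047019, so the 5 are not all separate stretches. The AP-1 word TGANTCA was found in 7.81% of all promoters and in 0 of the 9. A match is a word in the sequence and not a site shown to be bound. Each stretch of 30 bases is written along the strand of its gene, with the word in capitals, here as its reverse complement (Sparc and Thbs2 each hold a second match, not shown):
Ccn1, chr3:145650071-145650100, reverse strand, word 103 bases before the start: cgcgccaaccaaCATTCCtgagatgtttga
Sparc, chr11:55420099-55420128, reverse strand, word 36 bases before the start: ccctgaccctcaTGTCTGtttaggcaggag
Thbs2, chr17:14694312-14694341, reverse strand, word 67 bases before the start: gcctgcccctctTGTCTGactcctccccgg

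Because Thbs1 and Thbs2, and Ccn1 and Ccn2, are pairs of relatives whose values moved differently, the ratio of their counts was compared within each library, where the scaling between libraries plays no part. Periostin was set beside Tgfbi, the gene of its closest relative, in the same way. The pairs were chosen with values of these same libraries known. Their ratios therefore describe differences already seen and add no separate evidence. The log2 ratio of Thbs1 to Thbs2 was 1.03, 0.44 and -0.14 in wt replicates 1, 2 and 3 and 2.27, 1.25 and 1.72 in those labelled TKS5 KO. The groups did not overlap, and the mean was higher by 1.30 in the libraries labelled TKS5 KO (0.45 ± 0.59 against 1.75 ± 0.51, SD, n = 3 each, exact two-sided permutation test, p = 0.1). The log2 ratio of Ccn1 to Ccn2 was -3.85, -3.76 and -3.49 in wt libraries and -2.66, -2.54 and -3.20 in the others. It was higher by 0.90 in the libraries labelled TKS5 KO (-3.70 ± 0.18 against -2.80 ± 0.35, SD, n = 3 each, exact two-sided permutation test, p = 0.1). That of Postn to Tgfbi was 3.28, 3.00 and 1.01 in wt libraries and 4.35, 4.43 and 4.66 in the others, higher by 2.05 (2.43 ± 1.23 against 4.48 ± 0.16, SD, n = 3 each, exact two-sided permutation test, p = 0.1). Wt replicate 3 was far from the other wt libraries in this last ratio, and without it the difference was 1.34. A p of 0.1 is the smallest that 3 libraries against 3 allow, and it is also the value adjusted over the 3 ratios, so that none of these comparisons could pass the threshold.

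**Figure D4:**
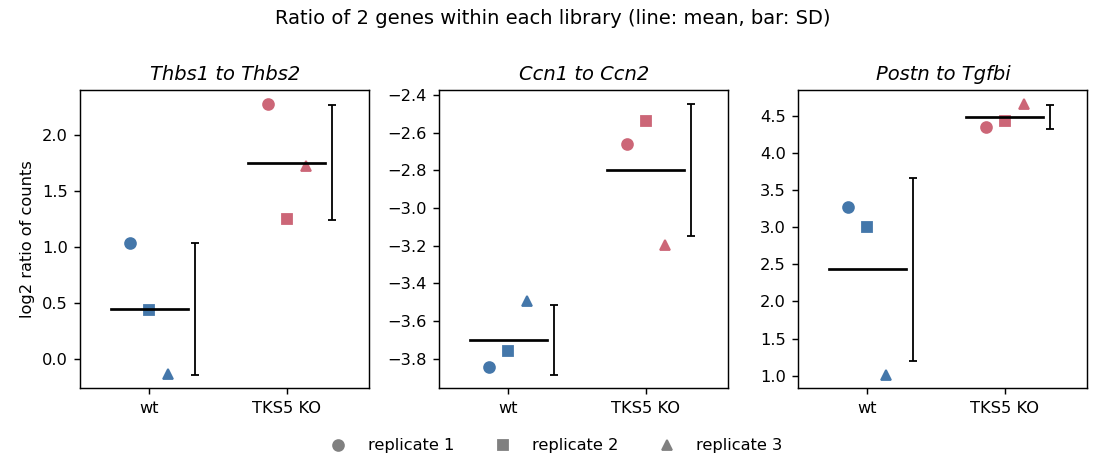
Log2 ratio of the counts of 2 related genes within each library (y axes, log2 scale, each with its own range), for wt libraries and those labelled TKS5 KO; symbols mark the replicate number, lines the mean and bars the SD. In each panel the 3 libraries labelled TKS5 KO lie above the 3 wt libraries, by 1.30, 0.90 and 2.05 on average.

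Among 19 other genes of these families, 9 were tested, of which edgeR called 4 lower in the libraries labelled TKS5 KO and 0 higher, with a median log2 fold change of -0.78. The share called was 44.4%, close to the 44.9% of all genes tested (22.1% lower and 22.8% higher). DESeq2 and limma-voom also called 0 higher, and at an unadjusted p under 0.05 there was 1, Smoc1 (0.87, edgeR adjusted p = 0.0725). Smoc1 was called higher with at least 10 counts in every library and with length and GC content corrected, with and without the replicate block (up to 1.11), and Spock2, with 21 of its 30 counts in TKS5 KO replicate 1, was called higher without the filter on low counts. Ccn5, a CCN protein without the C-terminal domain of its relatives, fell from 111.3 ± 31.05 to 35.4 ± 4.96 CPM (SD, n = 3 each, log2 fold change -1.65, edgeR adjusted p = 1.20e-05). Ccn4 was at 1550.5, 912 and 639 CPM in wt libraries and 562, 597 and 649 CPM in the others. It was called lower (-0.78, edgeR adjusted p = 0.0167) with 1 wt library inside the range of the other group, and only in 3 of the 6 fits that left out 1 library, losing the call without wt replicate 1 (-0.36), TKS5 KO replicate 1 or TKS5 KO replicate 2. Ccn4 was not called after the length correction either (-0.44, edgeR adjusted p = 0.173), nor with length and GC content corrected beside the replicate block. Smoc2, a relative of SPARC, fell by 1.48 on the log2 scale (standard error 0.26, edgeR adjusted p = 9.53e-05). Tgfbi, a collagen-binding adhesion protein that macrophages also make, was at 10.9, 11.8 and 46.3 CPM in wt libraries and at 3.84, 2.93 and 2.05 CPM in the others. Tgfbi was called lower (-3.01, edgeR adjusted p = 0.00163), also without wt replicate 3, where the change was -1.94. Thbs3 (0.14), Fstl1 (0.15) and Sparcl1 (0.40) had 95% intervals that held 0 and were not called, and all 3 were below 0 with library totals as the scaling. Sparcl1 was called higher without wt replicate 3 (0.93, edgeR adjusted p = 0.0245). Thbs4 had 5, 2 and 4 counts in wt libraries and 0 in the others, which allows up to 3 counts, and was not tested. Of the CCN genes, Ccn2, Ccn4 and Ccn5 were thus called lower, Ccn4 with the limits given, and Ccn1 was not called, while Ccn3, with 4 to 11 counts per library, and Ccn6, with no count, were not tested.

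The cell-surface receptors of these proteins were read in the same fit. Of 19 receptor genes, 14 were tested, and in the libraries labelled TKS5 KO 7 of them were called lower and 2 higher, with a median log2 fold change of -0.68. The share called was 64.3%, beside 44.9% of all genes tested (22.1% lower and 22.8% higher). Among the integrin chains, which pair to bind fibronectin, tenascin, periostin, osteopontin and the CCN proteins, Itga9 fell from 42.6 ± 12.7 to 11.3 ± 4.25 CPM (SD, n = 3 each, log2 fold change -1.90, edgeR adjusted p = 4.53e-05). Itgb5 fell by 1.11 on the log2 scale (edgeR adjusted p = 1.56e-04), and Itgav, Itgb3 and Itga5 were also called lower, though not after the length correction. Itgb3 and Itga5 were not called without wt replicate 3 either, and Itga5 not without TKS5 KO replicate 1. Itgb1, the chain shared by most matrix-binding integrins, was at 423.9 ± 49.95 and 450.4 ± 89.2 CPM (SD, n = 3 each) and was not called (0.089, edgeR adjusted p = 0.753, and -0.33 with library totals as the scaling). Lrp1, the endocytic receptor that takes up thrombospondins and CCN2, fell by 1.45 (edgeR adjusted p = 3.19e-05), but by 0.58 after correction for transcript length, and was not called once GC content was corrected too (-0.23). Cd47, the receptor of thrombospondin 1, rose from 36.2 ± 7.78 to 84.8 ± 17.9 CPM (SD, n = 3 each, log2 fold change 1.24, edgeR adjusted p = 2.01e-04), and was called under each of the 18 alternatives, with 0.82 for library totals as the scaling. Of the syndecans, Sdc2 was called lower (-0.58) and Sdc4, which aids the assembly of fibronectin fibrils, higher (0.67, edgeR adjusted p = 0.0204). Sdc4 was not called without wt replicate 2 or wt replicate 3, with library totals as the scaling (0.25) or with length and GC content corrected. Sdc2 was called in only 1 of the 6 fits that left out 1 library, and not with DESeq2 or the length correction (-0.49). Sdc3, not called at 0.36, was called higher after the length correction (0.68) and with GC content corrected too (up to 1.07).

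Of 14 genes whose products process, cross-link or bind these proteins, 13 were tested, of which edgeR called 7 lower and 0 higher, with a median log2 fold change of -0.85. The share called was 53.8%, beside 44.9% of all genes tested (22.1% lower and 22.8% higher). DESeq2 and limma-voom called 0 higher too, and 0 were higher at an unadjusted p under 0.05. With transcript length corrected, Ltbp1, which holds latent TGFβ in the matrix, was called higher (0.85, edgeR adjusted p = 0.00235, against 0.38 without the correction), and also with GC content corrected. Mmp2, gelatinase A, fell from 167 ± 11.4 to 50.01 ± 19.1 CPM (SD, n = 3 each, log2 fold change -1.73, edgeR adjusted p = 8.84e-06). Bmp1, a protease that matures procollagens, fell from 178 ± 3.54 to 66.3 ± 11.8 CPM (SD, n = 3 each, log2 fold change -1.42, edgeR adjusted p = 1.17e-05). Furin, which cleaves the precursors of TGFβ and many proteases, fell by 1.35 on the log2 scale (edgeR adjusted p = 3.67e-05). The changes shrank with length and GC content corrected, with and without the replicate block, at the smallest to -0.77 for Bmp1, -0.71 for Furin and -0.59 for Fbln2 (-1.20 without the corrections), and each was still called. Adamts1, Fbln2, Mmp3 and Pcolce were the other genes called lower, of which Mmp3 lost its call without wt replicate 1 and Pcolce without TKS5 KO replicate 3. Tgm2, the transglutaminase that cross-links fibronectin, was at 456 CPM in wt libraries and 583 CPM in the others on average and was not called (0.35, edgeR adjusted p = 0.194, -0.053 with library totals as the scaling), but was called higher with length and GC content corrected, with and without the replicate block (up to 0.78). Over the 3 lists, 20 of 36 tested genes were called, which is 55.6%, beside 44.9% of all genes.

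**Figure D5:**
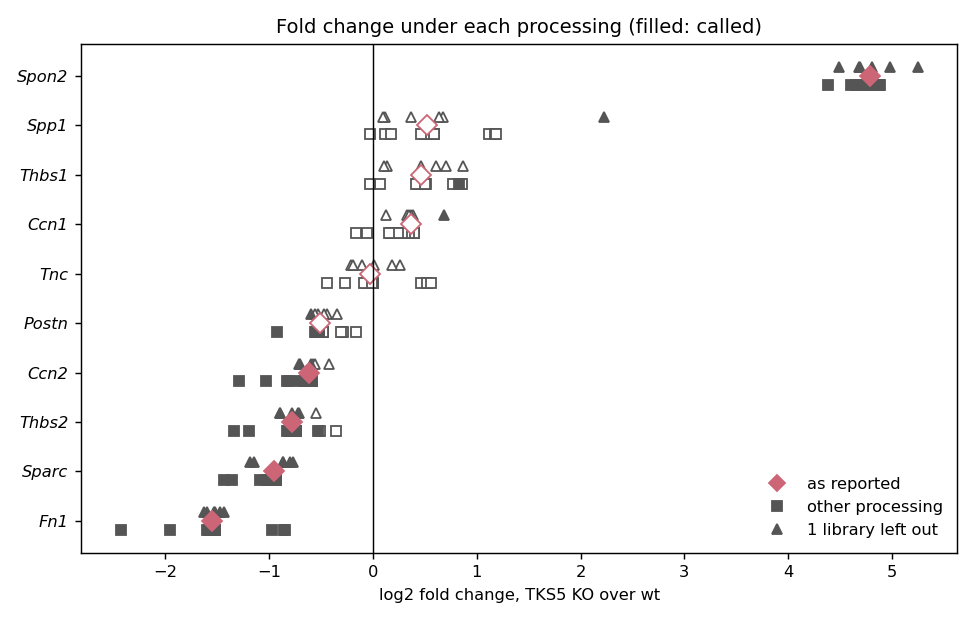
Log2 fold change of each of the 10 genes, TKS5 KO over wt (x axis), as reported (diamonds), under other processing (squares) and with 1 library left out (triangles); filled symbols are called. Fn1 and Sparc are filled throughout on the left and Spon2 on the right, while Spp1 is filled only without wt replicate 3, at 2.23.

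The counts of the 10 genes were also examined for reads that could belong elsewhere. In the last 600 bases of the longest transcript of each gene, 0 of 570 words of 31 bases occurred in a transcript of any other gene, except for Ccn2, where 7 of 570 did. Exons of another gene overlap those of Fn1, Thbs1, Tnc and Ccn2 on the opposite strand and those of Spp1 on the same strand, and these other genes had between 0 and 6 counts over all 6 libraries together. Whether the counting kept to 1 strand is not given in the sources used here.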

How the data were processed

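Quant-Seq libraries of 6 LF cultures were made on an Ion Torrent platform. The raw counts deposited by the authors were obtained by trimming with Trim Galore, aligning to GRCm38 with HISAT2 and then BOWTIE2, counting on 3′ UTR regions with metaseqR2 and summing per gene. The normalized counts deposited by the authors were made with EDASeq, are rounded, and are used only as a score in 1 alternative. Once sorted, their values are identical from library to library.

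Counts were analysed with edgeR 4.0.16 under R 4.3.3, using its default filter on low counts, TMM scaling and the robust quasi-likelihood F test (common dispersion 0.0429). CPM used the scaled library sizes. Standard errors were taken from the fit. Symbols, positions and transcript lengths came from GENCODE M21, which matched 55104 genes. Single ratios (pseudocount 0.5) were compared by exact permutation tests with scipy 1.17.1. The alternatives were RLE, upper-quartile and library-total scaling, DESeq2 1.42.0, limma-voom and the authors' normalized counts with limma 3.58.1 (pseudocount 1), no filter, at least 10 counts in every library, no fold change threshold, corrections for transcript length and GC content (loess span 0.5), a block for the replicate number, and leaving out every library in turn. The fits with edgeR, DESeq2, limma-voom and the length and GC correction were checked on simulated counts with known changes. The simulation had 1 dispersion for all genes, few changed genes, no trend with length and no library that stands apart. Its setting is thus simpler than these data, and it does not show how the fits behave on them.

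The 10 genes, the lists of relatives, receptors, processing genes and markers, and the tests were chosen with earlier results of these data known. Named genes are the 10, the tested relatives, the 3 genes with the smallest adjusted p in each direction among those called in each list, marker genes at 0, the sex and strain genes, and the nearest gene in pattern. The other receptor, processing and marker genes, Spock2, Thbs4, Ccn3 and Ccn6 were named after their values were seen. The paper calls its samples biologically independent, and neither it nor the labels say whether each replicate came from a separate mouse, so p-values measure the spread between these cultures.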

Additional observations from a re-analysis of the deposited data

How the results depend on the processing

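Over the alternatives, Fn1, Sparc and Spon2 kept their direction and call wherever they were tested. The number of the 10 genes called lower was 2 to 5 with each library left out and that called higher 1 to 2. It was 0 higher with at least 10 counts in every library, which removed Spon2 from the test, and 2 higher with length and GC content corrected and the replicate number as a block, where Thbs1 was added (0.83, edgeR adjusted p = 0.00163). Of the relatives, receptors and processing genes, 2 were called higher, against 1 with library totals as the scaling, 4 with the length correction, 5 with length and GC content, 5 with the block as well, and 1 to 2 with each library left out. The 18 called lower became 24 with library totals, 17 with DESeq2, 13 with the length correction, 14 with length and GC content, 13 with the block as well, and 16 to 18 with each library left out. Other filters changed the number of genes tested. Without a filter, 3 were called higher and 21 lower of 50 tested, and with at least 10 counts in every library 3 and 15 of 30. Signs turned for Thbs1 on the authors' normalized counts (-0.024), for Spp1 with length and GC content (-0.025), for Ccn1 with library totals (-0.055) and the authors' normalized counts (-0.16), and for Tnc with DESeq2 (6.3e-05), the length correction (0.46), length and GC content (0.52), the same with the block (0.56) and without single libraries (-0.21 to 0.26). The cause of these changes was not tested. Same-numbered libraries did not deviate together (correlations of their deviations -0.0010, -0.064 and 0.082, and not every library correlated best with its own number), so the numbers were not taken as pairs. With the replicate block, 4668 of all genes were called against 4642 without it, 5 of the 10 genes were lower, Postn among them (-0.52, edgeR adjusted p = 0.0453), and the ratio of Thbs1 to Thbs2 differed by 1.30 (exact sign-flip permutation test, p = 0.25, the smallest 3 pairs allow). At about 10 counts or fewer per library, as for Spon2 in wt libraries, depth limits the size of a change.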

Other observations

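For each of the 10 genes, the gene with the most similar course over the 6 libraries was sought among the 6017 tested genes with a mean of at least 20 CPM. Likeness was the root mean square difference of the log2 CPM, each gene centred on its own mean. The nearest to Fn1 was Slc7a5, a transporter of large neutral amino acids (difference 0.066), which went from 69.1 to 22.7 CPM on average. The nearest to Sparc was Loxl1, a lysyl oxidase that cross-links elastin (0.105), from 485 to 238 CPM. Cdon, a cell-surface protein of hedgehog signalling, was nearest to Ccn2 (0.053), and Tm9sf4 was nearest to Thbs2 (0.047). The nearest to Spon2 was Id3, an inhibitor of basic helix-loop-helix factors (0.64), which went from 109 to 1165 CPM, and the nearest to Spp1 was Acta1, skeletal muscle actin (0.51). For Postn it was Otud5 (0.059), for Ccn1 Slc7a6 (0.095), for Tnc Sbno2 (0.13) and for Thbs1 2310022B05Rik (0.26). The distances of Spon2 and Spp1 were the largest of the 10. These are descriptions over 6 libraries that share their genotypes and depth.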
